A study of Mus musculus with 5 samples.

Results

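Natural killer (NK) cells were examined in single-cell RNA sequencing of lung tumors from mice with small cell lung cancer (SCLC). The members are cell barcodes, each standing for the RNA caught from a cell in a microwell, and they were selected on measured values: more than 150 detected genes, at most 20% mitochondrial counts, at least 2 unique molecular identifiers (UMIs, tags that count RNA molecules) summed over Ncr1, Klrb1c, Klre1, Klra8, Klra4 and Eomes, and 0 UMIs of the T cell genes Cd3e, Cd3d and Cd3g and the B cell genes Cd79a and Ms4a1. The rule found 526 NK barcodes among 86735 deposited barcodes, 0.607% of the 86606 that passed the filters on genes and mitochondrial counts. Of these, 389 (74.0%) were in the library from mubritinib-treated tissue and 113 (21.5%) in that from the combination, while the other 3 libraries held 24 in all.

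All groups were Rb1 fl/fl x Trp53 fl/fl mice, in which an adenovirus carrying Cre, given through the airways, deletes both tumor suppressor genes and starts tumors in the lung. The groups were vehicle (phosphate-buffered saline), an antibody to the checkpoint receptor PD-1 (anti-PD-1), the ERBB2 inhibitor mubritinib (ERBB2i), mubritinib together with anti-PD-1 (combination), and a second library of that pair labelled as in response. Tumors had grown for about 6 months, and dosing was 10 mg/kg at intervals of 3 days. Each group was 1 library, from the study's description most likely of a single mouse, although the labels do not state it. Animal, library and treatment therefore cannot be told apart in any comparison between groups. All intervals below are 95% intervals that cover counting error only.

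NK cells are lymphocytes that kill stressed, infected or transformed cells without a rearranged antigen receptor. They weigh signals from activating receptors (NKp46, encoded by Ncr1; NK1.1, encoded by Klrb1c; NKG2D, encoded by Klrk1) against inhibitory receptors that read MHC class I on the target (most Ly49 receptors, encoded by Klra genes, and CD94-NKG2A, encoded by Klrd1 and Klrc1). Killing uses granules that carry perforin (Prf1) and granzymes (Gzma, Gzmb), and the transcription factors T-bet (Tbx21) and Eomes set the lineage. Loss of MHC class I removes an inhibitory signal for NK cells and the antigen display that CD8 T cells need, which is why both lymphocytes are of interest in SCLC.

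The upstream sequence of Ncr1 is shown because Ncr1 led the rule, and those of Gzma, Prf1, Gzmb and Nkg7 because these granule genes carried the main differences described below. Each is the 250 bases before the transcription start in the RefSeq tables of GRCm38.p6, read 5′ to 3′ along the gene. Capitals mark the core of the T-box motif (TCACAC, the family of Tbx21 and Eomes) and of the Runx motif (TGTGGT), on either strand. These are Ncr1 at chr7:4337465-4337714 (plus strand), Gzma at chr13:113100982-113101231 (minus), Prf1 at chr10:61297586-61297835 (plus), Gzmb at chr14:56262335-56262584 (minus) and Nkg7 at chr7:43436888-43437137 (plus).
Ncr1: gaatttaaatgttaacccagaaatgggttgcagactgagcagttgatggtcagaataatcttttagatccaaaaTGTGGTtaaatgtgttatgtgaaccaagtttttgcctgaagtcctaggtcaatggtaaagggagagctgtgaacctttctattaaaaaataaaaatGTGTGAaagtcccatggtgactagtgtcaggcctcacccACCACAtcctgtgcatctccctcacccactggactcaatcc
Gzma: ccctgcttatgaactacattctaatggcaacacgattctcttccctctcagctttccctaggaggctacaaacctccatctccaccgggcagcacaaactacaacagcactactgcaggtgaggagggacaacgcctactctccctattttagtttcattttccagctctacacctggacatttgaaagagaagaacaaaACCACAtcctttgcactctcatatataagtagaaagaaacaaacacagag
Prf1: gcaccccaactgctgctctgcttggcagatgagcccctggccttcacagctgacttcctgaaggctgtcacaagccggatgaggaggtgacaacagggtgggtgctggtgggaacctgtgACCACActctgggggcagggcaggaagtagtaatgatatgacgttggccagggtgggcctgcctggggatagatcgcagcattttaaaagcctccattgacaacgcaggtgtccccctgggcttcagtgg
Gzmb: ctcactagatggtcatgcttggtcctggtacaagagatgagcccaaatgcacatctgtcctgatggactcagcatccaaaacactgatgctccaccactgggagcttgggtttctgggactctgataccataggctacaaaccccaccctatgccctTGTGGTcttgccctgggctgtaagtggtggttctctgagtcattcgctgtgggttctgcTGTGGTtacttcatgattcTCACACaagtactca
Nkg7: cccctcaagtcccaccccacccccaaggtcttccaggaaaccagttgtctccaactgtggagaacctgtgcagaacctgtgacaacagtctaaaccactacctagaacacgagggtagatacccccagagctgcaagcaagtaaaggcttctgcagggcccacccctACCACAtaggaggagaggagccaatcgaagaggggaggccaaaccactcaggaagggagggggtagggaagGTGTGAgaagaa
The Runx letters stood in all 4 granule promoters and in 3 of the 6 rule gene promoters, against 14.2% of 27025 promoters of the same length. The T-box letters stood in 2 of the 4 granule promoters (Gzmb and Nkg7) and in 1 of the 6 rule gene promoters (Ncr1), against 12.2% of all promoters. Among genes chosen below by the size of their ratio in ERBB2i, as far as the tables hold them, the T-box letters stood in 1 of 8 promoters of genes higher in NK barcodes and in 2 of 7 of genes lower, and the Runx letters in 2 of 8 and 0 of 7. A match is a description of the letters in this window and says nothing of whether a factor was bound.

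The libraries held 9718 to 27210 barcodes and 21624506 to 88497833 UMIs. Barcodes had 24 bases in ERBB2i and combination and 27 in the other 3 libraries. The first pair shared 782 barcodes, among them 15 of the ERBB2i and 2 of the combination NK barcodes, but no barcode was NK in both. Pairs among the other 3 shared 69 to 79 barcodes and no NK barcode. Of T barcodes (at least 2 UMIs of Cd3e, Cd3d and Cd3g together), 66.9% in anti-PD-1 and 75.5% in combination in response carried a UMI of Rag1, Rag2, Dntt or Ptcra, genes of immature thymocytes, against 1.04% in ERBB2i, 0.690% in combination and 0% of the 90 in vehicle. Rag1 was listed at 0 in all 5 libraries over all cells, so it marked no barcode here and removed none by the CD8 T rule below. The combination in response held 7 tumor barcodes, and the other libraries 5879 to 20615.

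NK barcodes made up several percent of the lymphocytes in vehicle, ERBB2i and combination and under 1 percent in the other libraries. They made up 9.31% of NK, T and B barcodes (B with at least 2 UMIs of Cd79a and Ms4a1) in vehicle (19 of 204, exact interval 5.70 to 14.2), but 4.44% with the study's quality filters, which left 2 of them, and 4.15% where UMIs of T cell receptor and co-receptor genes were barred too. The share was 12.2% in ERBB2i (389 of 3179, 11.1 to 13.4) and 5.92% in the combination library (113 of 1908, 4.91 to 7.08). In anti-PD-1 the share was 0.0183% (1 of 5468, 0.000463 to 0.102) and in combination in response 0.0549% (4 of 7291, 0.0150 to 0.140). The interval of ERBB2i lay above that of combination, that of vehicle overlapped both, and those of the last 2 lay below all 3. Set against CD8 T barcodes, NK barcodes numbered 65.5 per 100 in vehicle, 56.1 in ERBB2i and 29.7 in combination, while anti-PD-1 had 0.195 and combination in response 0.646. Among all filtered barcodes, a measure that the tumor share of a library enters, NK were 1.48% in ERBB2i (1.34 to 1.63), 0.415% in the combination library (0.342 to 0.499) and 0.196% in vehicle (0.118 to 0.307).

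**Figure D1:**
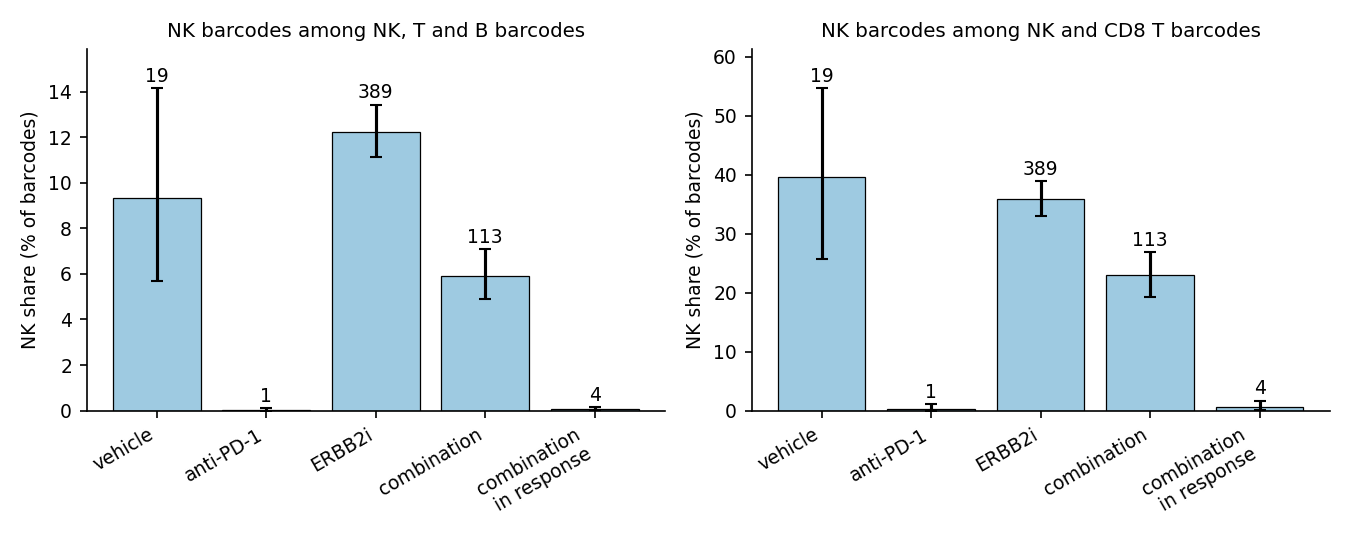
NK barcodes in percent of NK, T and B barcodes (left) and of NK and CD8 T barcodes (right) in the 5 libraries. Bars are shares, lines exact 95% binomial intervals for counting error, and the numbers above are NK barcodes; vehicle, ERBB2i and combination stand at 9.31%, 12.2% and 5.92% on the left, and the other 2 libraries are close to 0.

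The rule genes were also counted over whole libraries, which describes the selection and does not check it. In anti-PD-1, Ncr1, Klra8 and Klra4 had 0 UMIs among all 37594901, which allows up to 0.0798 CPM (counts per 1000000 UMIs). Klrb1c had 24 UMIs there, Klre1 17 and Eomes 23, and T barcodes held 91.7%, 76.5% and 82.6% of them. In ERBB2i the NK barcodes held 81.1% of the library's Ncr1 UMIs, 84.0% of Klra8, 82.3% of Klra4 and 71.3% of Klrb1c, but 23.2% of Eomes, of which T barcodes held 49.9%. Gzma, named as a marker but not used by the rule, was split by library: NK barcodes held 80.3% of its UMIs in vehicle, 73.3% in ERBB2i and 31.2% in combination, whereas T barcodes held 95.8% in anti-PD-1 and 98.2% in combination in response.

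The label was checked with genes that the rule did not use. In ERBB2i, Gzma was found in 1.45% of 20990 barcodes without a rule UMI, in 8.33% of the 312 with 1 UMI that fell just outside the rule, in 50.7% of the 69 with 2 that fell just inside, and in 93.1% of the 159 with 7 or more. Combination ran the same way, at 0.870%, 9.80% of 153, 37.5% of 24 and 90.0% of 30. Nkg7, a granule membrane gene, went from 22.8% at 1 UMI to 69.6% at 2 in ERBB2i. In combination it went from 20.3% (14.2 to 27.5) to 37.5% (18.8 to 59.4), with overlapping intervals. The neuroendocrine tumor gene Chga moved the other way, from 66.3% at 0 UMIs to 20.8% at 7 or more in ERBB2i, and in combination from 78.9% to 33.3% at 5. Prf1 went from 5.13% at 1 UMI to 33.3% at 2 in ERBB2i, but in combination it was found in 3.27% at 1 UMI and in 0 of the 24 barcodes at 2 (exact interval 0 to 14.2). Gzma and Nkg7 were thus higher just inside the threshold in both libraries, for Nkg7 in combination within counting error, and Prf1 in ERBB2i. All 20 NK markers listed for the label were found among the members of both libraries, but this does not check the label. The rule genes among them chose the members, and a single UMI was enough to count as found.

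**Figure D2:**
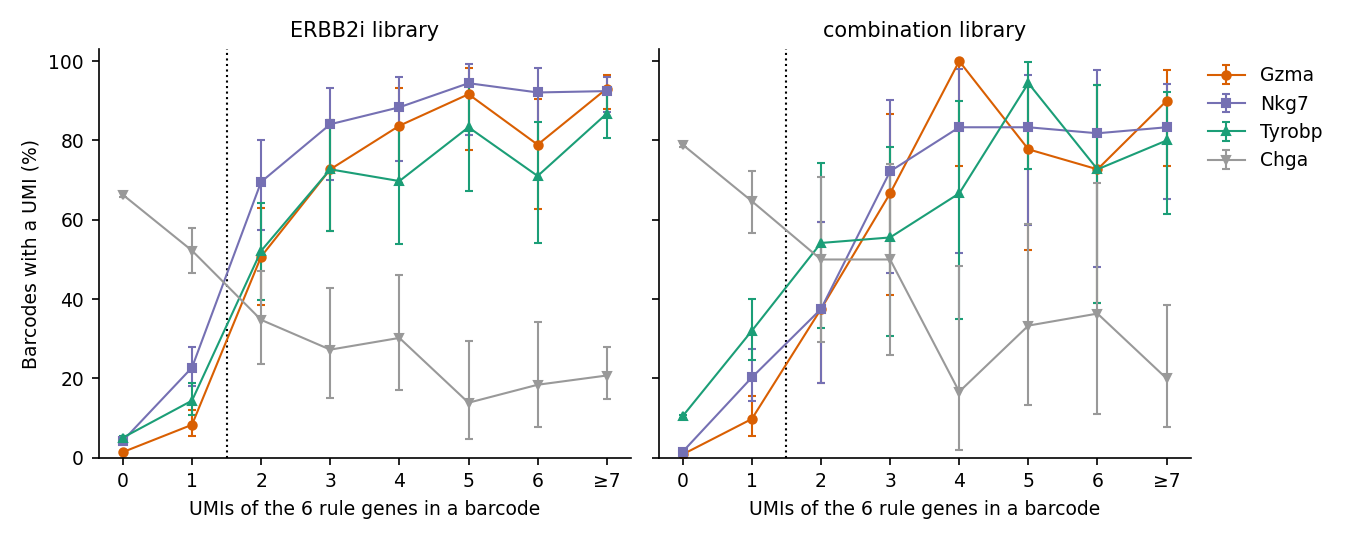
Percent of barcodes with a UMI of Gzma, Nkg7, Tyrobp or Chga against the number of rule gene UMIs in the barcode, in ERBB2i (left) and combination (right), with exact 95% binomial intervals. The dotted line is the threshold of the rule; in ERBB2i Gzma goes from 8.33% at 1 UMI to 50.7% at 2 and 93.1% at 7 or more, while Chga falls to 20.8%.

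Other cell types left traces in the NK barcodes, and their amount differed between libraries. At least 2 UMIs of the 13 tumor markers were found in 160 of 389 NK barcodes in ERBB2i (41.1%) and in 67 of 113 in combination (59.3%), and CD8 T barcodes had like shares, 43.1% and 59.7%. At least 2 UMIs of the 11 macrophage markers were in 9 NK barcodes in ERBB2i (2.31%, 81.4 CPM over the list) and in 27 in combination (23.9%, 9821 CPM), against 3.17% and 17.4% of CD8 T barcodes. Csf1r, Adgre1 and Fcgr1, which define macrophages, were at 0 in the ERBB2i NK barcodes, and all 11 macrophage markers were found in combination. Of the 15 T cell markers, the rule bars Cd3e, Cd3d and Cd3g. All 12 others were found in ERBB2i and 11 of them in combination, with at least 2 UMIs in 82 of 389 and 21 of 113 NK barcodes. Members with a single UMI of such genes come on top. With T cell receptor and co-receptor UMIs barred, the NK share of lymphocytes was lower in vehicle, ERBB2i and combination, as given under the dependence on processing. The mast cell and basophil genes Cpa3, Mcpt8, Fcer1a, Ms4a2 and Gata2 were at 0 in both. In vehicle 1 NK barcode, of 14509 UMIs, carried 536 UMIs of the B cell list, all from Cd74 and H2-Aa. A set called clean below leaves out NK, T, B and CD8 T barcodes with at least 2 tumor or at least 2 macrophage UMIs. It was chosen after seeing the data and keeps 224 NK barcodes in ERBB2i, 40 in combination, 10 in vehicle, 4 in combination in response and none in anti-PD-1. The share of NK among clean lymphocytes was 8.93% for vehicle (4.36 to 15.8), 12.5% for ERBB2i (11.0 to 14.2) and 5.99% for combination (4.31 to 8.07), close to the values over all barcodes.

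The levels below are UMIs summed over the NK barcodes of a library and scaled to 1000000, and each gene is compared only with itself, since counts were not set per length. NK barcodes held a median of 1721 UMIs in vehicle, 1123 in ERBB2i (510 to 11958) and 1111 in the combination library (500 to 16156). Clean barcodes held 13644 of the 58910 NK UMIs in vehicle, 233622 of 663685 in ERBB2i and 37522 of 242021 in combination. The other UMIs lay in barcodes that also held tumor or macrophage UMIs, and their part in the levels was not tested.

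The rule genes are given first, without comparison, since they chose the members. The vehicle values here and below rest on 19 barcodes, of which 2 pass the study's quality filters. Of their 58910 UMIs, 1 barcode held 14509 and another 6657. The first carried the UMIs of the B cell list given above. The second had 0 UMIs of Gzma, Nkg7, Tyrobp, Klrd1, Prf1 and the immune cell gene Ptprc. Ncr1 was at 475 CPM in vehicle, 615 in ERBB2i and 355 in combination, with a UMI in 68.4%, 55.0% and 39.8% of members. Klrb1c was at 356, 467 and 314 CPM, and Klre1, a lectin-like receptor, at 832, 824 and 508. The Ly49H gene Klra8 was at 832, 996 and 649 CPM and the Ly49D gene Klra4 at 798, 797 and 545. Eomes was at 119, 212 and 107 CPM. Ly49 genes are near-identical copies of each other, so the counting may have divided reads among them and their single values are uncertain.

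Gzma and Nkg7 were found in most members of the 3 libraries. Gzma, a granzyme that cleaves after basic residues, stood at 6994 CPM in vehicle (6335 to 7703), at 5347 in ERBB2i (5173 to 5526) and at 3310 in the combination library (3084 to 3547). It was found in 17 of 19, 314 of 389 (80.7%) and 82 of 113 (72.6%) members. In ERBB2i a member held a median of 8 Gzma UMIs and at most 55, with 75 members at 0. The intervals of the 3 libraries did not overlap. Without lymphocyte barcodes of 2 or more macrophage UMIs, however, the log2 ratio of combination over ERBB2i was 0.00. With every barcode thinned to 500 UMIs, Gzma was found in 71.2% of NK barcodes of ERBB2i (66.4 to 75.7) and 69.0% of those of combination (59.6 to 77.4), so the shares of Gzma carriers overlapped at equal depth. Tumor barcodes, which should lack the gene, gave 0.331% and 0.291% at that depth, with medians of 2569 and 2921 UMIs before thinning.

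Prf1, the pore-forming protein, was at 594, 759 and 326 CPM in vehicle, ERBB2i and combination, the order used from here on. Gzmb, the caspase-activating granzyme, was at 492, 484 and 256 CPM, and Nkg7 at 2546, 3435 and 1537. Ctsw, a cathepsin of killer lymphocytes, was at 713, 649 and 364 CPM. All 4 were lowest in combination, in sums that include barcodes with tumor or macrophage UMIs. Cma1, a protease gene known from mast cells, was at 340, 217 and 99.2 CPM, in barcodes where the mast cell genes listed above were at 0.

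The signaling adaptors of activating receptors differed by less than 2-fold between the 3 libraries. Tyrobp (DAP12) was at 2173 CPM in vehicle, 1847 in ERBB2i and 1665 in combination, and Fcer1g (the Fc receptor gamma chain) at 1596, 1739 and 1872. Both are also used by macrophages. Hcst (DAP10), the partner of NKG2D, was at 289, 342 and 256 CPM. Among receptors, Klrk1 was at 645, 797 and 529 CPM and Klrd1 at 900, 803 and 471. The NKG2A gene Klrc1 was at 153, 279 and 66.1 CPM and its activating counterpart Klrc2 (NKG2C) at 289, 280 and 70.2. Klrg1, an inhibitory receptor of mature NK cells, was at 730 CPM in vehicle and at 181 and 211 in the other libraries.

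The chemokine Ccl5 was at 13631 CPM in vehicle, 9119 in ERBB2i and 6970 in combination, and Xcl1, which attracts cross-presenting dendritic cells, at 255, 356 and 289. Ifng was at 50.9, 60.3 and 28.9 CPM, in 2 to 32 barcodes a library. The interleukin-2 and interleukin-15 receptor chain Il2rb was at 781, 704 and 434 CPM. Il12rb2, a chain of the interleukin-12 receptor, was at 102, 140 and 28.9 CPM. Id2, required for innate lymphocytes, was at 2173, 1180 and 1297 CPM, and Tbx21 at 119, 196 and 66.1. Il2rg, Itgam, Irf8, Klrb1b, Lilrb4a and Ctla2a were listed at 0 in all 5 libraries over all cells, and their values were not read.

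**Figure D3:**
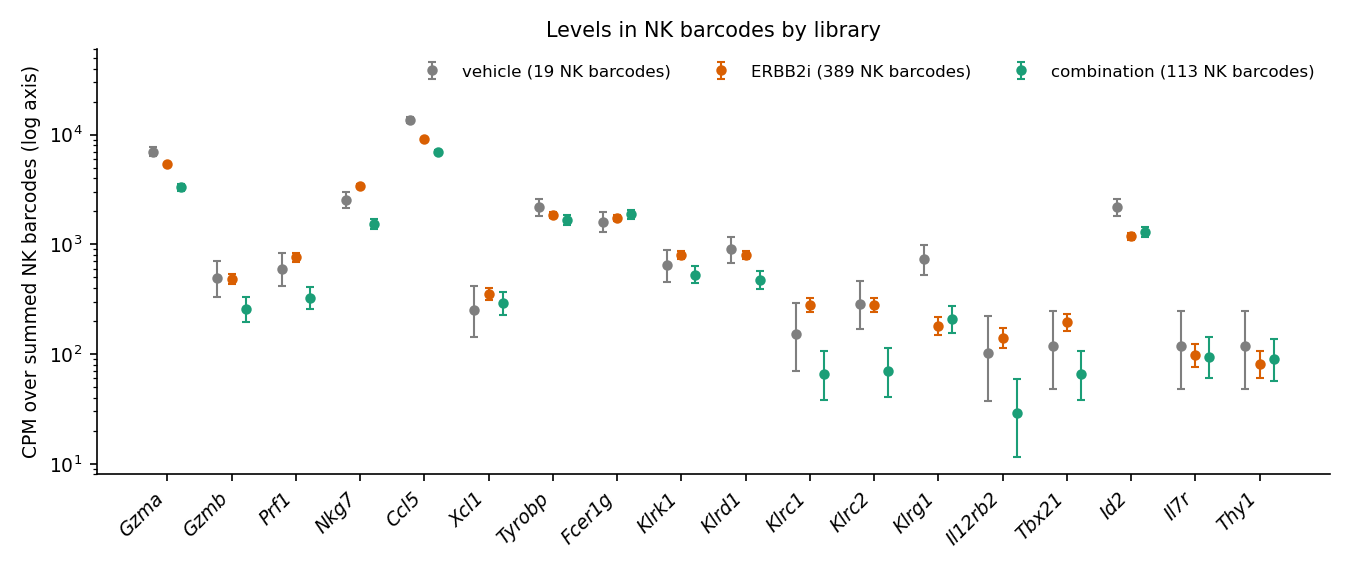
CPM over the summed NK barcodes of vehicle, ERBB2i and combination, 1 column of points per gene on a log axis. Barcodes with tumor or macrophage UMIs are included. Lines are exact 95% Poisson intervals for counting error. Gzma stands at 6994, 5347 and 3310; Klrc1, Klrc2, Il12rb2 and Tbx21 are lowest in combination, Klrg1 is highest in vehicle, and Tyrobp and Fcer1g lie close together.

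NK barcodes were next compared with CD8 T barcodes of the same library, the other killer lymphocyte, so that both came from the same tissue and chemistry. CD8 T barcodes had at least 2 Cd3 UMIs, at least 1 of Cd8a or Cd8b1, and 0 of Cd4, Rag1, Rag2, Dntt, the 2 B cell genes and the 6 NK rule genes. There were 693 in ERBB2i and 380 in combination, with medians of 1369 and 1380.5 UMIs. The genes of either rule were left out. The CD8 T rule also removed T cells that carried a UMI of an NK rule gene. In ERBB2i, T barcodes held 49.9% of the Eomes and 21.0% of the Klre1 UMIs. What this removal did to the ratios of other killer and NK genes was not tested. The ratios hold only against CD8 T barcodes chosen in this way. In ERBB2i, 208 of 7184 genes with at least 50 UMIs in both classes together (2.9%) were at least 2-fold higher in NK barcodes and 305 (4.25%) at least 2-fold lower, with a median log2 ratio of 0.09. With ratios centered on that median the counts were 158 and 368. With 1 library a group no gene test was possible, and the counts describe these libraries.

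Among the genes highest over CD8 T barcodes in ERBB2i were NK receptors, their adaptors and Gzma. The 10 highest by ratio, with at least 3 UMIs in both classes, were Tyrobp (log2 ratio 7.56, interval 6.78 to 8.47, 1226 against 13 UMIs), Klri2 (7.44), Fcer1g (6.31), Gzma (5.77, 5.51 to 6.03, 3549 against 130 UMIs), Il12rb2 (5.54), Klrc2 (5.54), Anxa1 (5.33), Klra7 (5.03), Cited4 (4.85) and the tyrosine kinase Syk (4.80). Among clean barcodes Tyrobp was at 8.22 and Gzma at 7.51. Thinned to 500 UMIs, Gzma was found in 71.2% of NK and 1.88% of CD8 T barcodes in ERBB2i.

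Activating receptors were higher in NK barcodes in ERBB2i for 5 of 10 genes measured, and lower for 1, with a median of 2.00. The 5 were Klrk1 (3.07, 2.78 to 3.36), Klrc2, Klrb1f (4.40), Klrb1a and the SLAM family receptor Cd244a, and the 1 lower was Crtam. Klrb1a had 104 UMIs in NK and 0 in CD8 T barcodes, a log2 ratio of 6.11 with the 0 set at a floor of 3 counts. Cd244a had 83 against 0, a log2 ratio of 5.79 at that floor. Inhibitory receptors were higher for 7 of 11 and lower for 4, with a median of 1.72. Those higher were the Ly49 genes Klra9 (8.44, 6.58 to 11.49, 348 against 2 UMIs), Klra7 and Klra3 (4.61), the lectin-like Klrg1 (4.00, 3.22 to 4.88) and Klri2, which is also known as the partner of Klre1 in an activating receptor, and the CD94-NKG2A pair Klrd1 (1.72, 1.52 to 1.93) and Klrc1 (1.48, 1.15 to 1.82). Those lower were the checkpoint receptors of T cells, Pdcd1 (−4.20, −6.50 to −2.62, 3 against 110 UMIs), Ctla4 (−3.62), Lag3 and Cd96. The inhibitory genes thus separated into a lectin-like set that was higher and an immunoglobulin-type set that was lower.

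Among adaptors and signaling genes, 3 of 19 were higher (Tyrobp, Fcer1g and Syk) and 4 lower (among them Lcp2, Plcg1 and Cish), with a median of −0.54. Cytotoxic genes were higher for 8 of 17 and lower for 1, with a median of 0.73. Prf1 was at 2.78 (2.52 to 3.06), Gzmb at 1.82 (1.56 to 2.09) and Cma1 at 8.17 (5.66 to 13.48, 144 against 1 UMIs). Nkg7 was at 0.61 and Ctsw at 0.43, and Gzmk, a granzyme of memory T cells, at −4.25 (13 against 492 UMIs). Of 8 cytokines, Ccl3 (2.22) and Xcl1 (1.85) were higher and Ltb (−2.12) lower, while Ccl5 was at −0.43. Of 11 cytokine receptors, Il2rb (1.37), Il12rb2, Il18r1 (1.04) and Il18rap (2.41) were higher and Il7r (−3.20), Il21r and Tgfbr2 lower. Of 17 transcription factors, Tbx21 (2.66), Id2 (1.37), Zeb2 (1.33) and Nfil3 (2.02) were higher and Tox, Tcf7 (−1.55) and Lef1 (−2.40) lower.

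The stage genes of NK maturation ran in opposite directions. Of 9 measured genes of the mature, CD11b stage, 6 were higher in NK than in CD8 T barcodes and none lower (median 1.33). These were Klrg1, the exit receptor S1pr5 (6.55, 4.66 to 9.62, 94 against 2 UMIs), Zeb2, Cma1, Gzmb and Spn (1.04). Of 10 genes of the earlier, CD27 stage, 1 was higher (Xcl1) and 7 lower (Cd27, Tcf7, Ltb, Il7r, Thy1, Emb and Lef1, median −1.56). Tcf7, Lef1, Il7r, Cd27 and Thy1 are also known as genes of naive and memory T cells. Of 19 trafficking genes, Ccr2 (2.37), S1pr5, Itga2 (67 against 0 UMIs, 5.48 with the 0 at the floor) and Itgb2 (1.53) were higher, and Ccr7 (−5.14), Cxcr6 (−3.62), S1pr1 (−2.24), Cxcr3, Itgae and Cd69 (−2.04) lower.

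Of 10 measured genes of type 1 innate lymphoid cells (ILC1) and tissue residency, none was higher and 6 were lower (median −1.91), among them Cxcr6, Cd69, Il7r and Itgae. The CD8 T barcodes themselves held 196 UMIs of Cxcr6, 287 of Cd69, 1191 of Il7r and 55 of Itgae. A ratio below them therefore does not tell whether members were ILC1. Genes of ILC2 and ILC3 were rare: 2 of 11 reached 50 UMIs (Rora and Gata3), neither past 2-fold. Interferon-stimulated genes were higher for none of 16 and lower for 10 (median −1.31), with Ly6a at −4.55 (7 against 326 UMIs), Ifi27l2a at −2.24 and Bst2 at −1.65. None of 20 cell cycle genes was past 2-fold, and Mki67 was at 0.46. Of 17 immediate early and dissociation genes, none was higher and 2 were lower, Junb (−1.13) and Hspa1a. The lowest genes overall were Ccr7, BE692007 (−4.90), Themis (−4.55), Ly6a, Klk8 (−4.37), Slfn1 (−4.28), Gzmk, Cd6 (−4.21), Pdcd1 and Cd5 (−4.16), of which Themis, Cd5 and Cd6 serve T cell receptor signaling.

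In combination, 204 of 4242 genes (4.81%) were at least 2-fold higher in NK than in CD8 T barcodes and 289 (6.81%) at least 2-fold lower, with a median of −0.06. Ly49 receptors, Klrk1, Klrg1 and the adaptors were again higher in NK barcodes. Klra9 was at 6.11 (89 against 4 UMIs), Tyrobp at 4.56, Fcer1g at 4.23, Klra3 at 4.01, Klrg1 at 3.72 (2.79 to 4.76), Klra7 at 3.02 and Klrk1 at 1.84. The 10 highest genes were Klra9 and Vcam1 (6.29, 4.69 to 8.60, 76 against 3 UMIs), Pla2g2d, Clec4n, Slc40a1, Gpnmb, Mmp13, Il18bp, Marco and H2-M2. Vcam1, Marco, Slc40a1, Gpnmb and Clec4n are known from macrophages, and the macrophage list was at 9821 CPM in NK and 699 in CD8 T barcodes there; its part in the result was not tested. Among clean barcodes Klra9 was at 6.15 (46 against 3 UMIs), and the other 9 had 0 or 1 UMIs in NK barcodes. Interferon-stimulated genes were again lower for 9 of 16 and higher for 1 (median −1.10), with Ifi27l2a at −4.80 (4 against 345 UMIs) and Ly6a at −3.09. CD27 stage genes were lower for 5 of 10 and higher for none, with Il7r at −2.98 and Thy1 at −2.76. CD11b stage genes were higher for 2 of 7, Klrg1 and Zeb2 (2.85), with a median of −0.22.

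Of cytotoxic genes in combination, 6 of 14 were higher in NK than in CD8 T barcodes and 1 lower (median 0.10), with Gzma at 1.94 (1.79 to 2.09), Prf1 at 1.61 (1.15 to 2.08) and Gzmb at −0.69 (−1.11 to −0.29). The CD8 T values differed between these libraries as well. From ERBB2i to combination, Gzma in CD8 T barcodes stood at 98.2 and 862 CPM (log2 3.13, 2.86 to 3.42) and Gzmb at 137 and 414 CPM (1.60), whereas in NK barcodes both were lower in combination. With every barcode at 500 UMIs, Gzma was found in 1.88% of CD8 T barcodes of ERBB2i (13 of 693) and 12.6% of those of combination (48 of 380, 9.46 to 16.4). Among clean barcodes the NK over CD8 T ratio in combination was 2.94 for Gzma, 2.50 for Prf1 and 0.90 for Gzmb. Of the 150 listed genes measured in both libraries, 117 had the same sign, and 7 (Klrc1, Gzmb, Nkg7, Ctsw, Ccl5, Ly6c2 and Rgs1) were opposite beyond counting error.

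**Figure D4:**
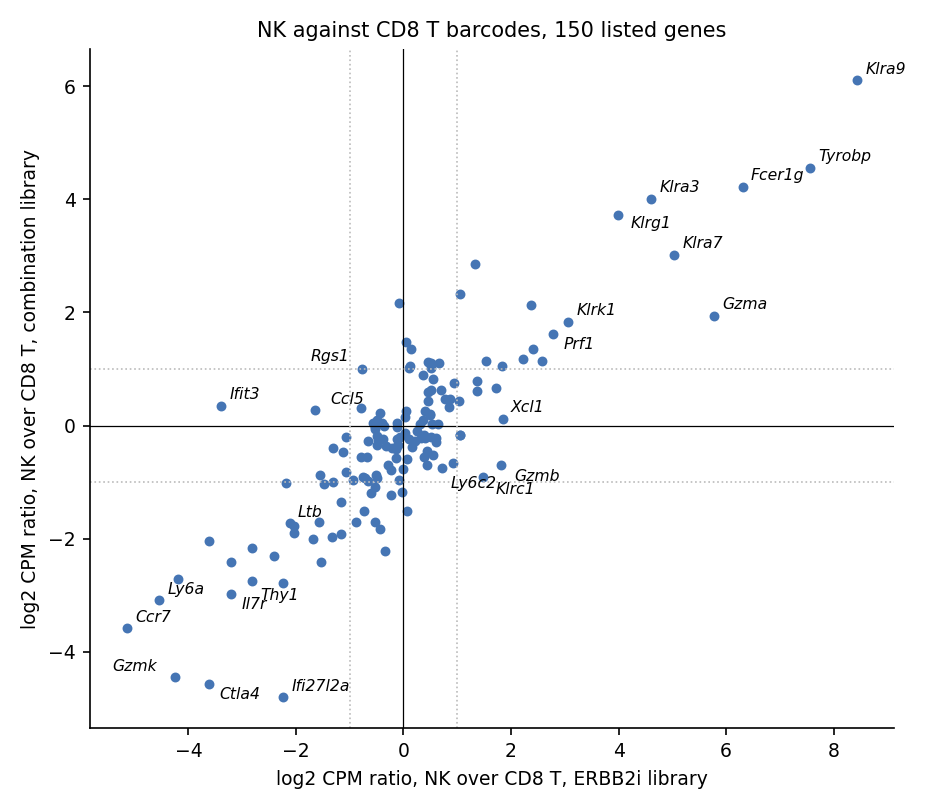
Log2 ratio of CPM in NK over CD8 T barcodes for 150 listed genes, in ERBB2i (horizontal) and combination (vertical). Points are genes, and dotted lines mark 2-fold; Klra9, Tyrobp and Fcer1g are high on both axes, Ccr7, Gzmk and Ctla4 low on both, and Gzma goes from 5.77 to 1.94.

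NK barcodes of combination were then set against those of ERBB2i, the only pair of libraries with enough members. At least 50 UMIs were reached by 4204 genes, of which 188 (4.47%) were at least 2-fold higher in combination and 410 (9.75%) at least 2-fold lower. Both libraries have barcodes of the same length. The median log2 ratio was −0.13, and with ratios centered on it the counts were 241 and 320. Among clean barcodes 956 genes were measured, and 27 were higher and 68 lower.

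The 8 genes highest in combination were C1qb (7.81), Lyz2 (7.47, 1297 against 20 UMIs), C1qc (7.37), Ccl6 (7.31), Lpl (7.17), Spp1 (6.88), Cybb (6.64) and Wfdc17 (6.52), which are known from macrophages. They moved with the macrophage list, 81.4 CPM in ERBB2i and 9821 in combination, and Lyz2 was at 0.83 among clean barcodes (−2.47 to 3.22, 2 against 7 UMIs). CD8 T barcodes also held more Lyz2 in combination (3.05). Among the 8 lowest were Nrxn3 (−4.03), Nnat (−3.76, 79 against 2931 UMIs), the heat shock gene Hspa1a (−3.37), Klhl13, Kcnh7, Dcc and Igfbp4. Nnat, a neuronal gene, was also lower in CD8 T barcodes of combination (−3.33), and Hspa1a likewise (−2.66). Lyz2, Nnat and Hspa1a thus differed in the same direction in both lymphocyte classes.

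Among NK genes, Prf1, Nkg7 and several genes of the mature stage were lower in combination. Cytotoxic genes were higher for 2 of 13 (Ctsc and Lamp1) and lower for 3 (Prf1, Nkg7 and Cma1), with a median of −0.80. Nkg7 was at −1.16, Prf1 at −1.22 (−1.58 to −0.87), Gzmb at −0.92 (−1.33 to −0.52) and Gzma at −0.69 (−0.80 to −0.58). Among clean barcodes none of 12 was past 2-fold, the median was −0.44, and Nkg7, Prf1, Gzmb and Gzma were at −0.72, −0.66, −0.67 and −0.28. All 4 ratios were closer to 0 in the clean set. With barcodes of 2 or more macrophage UMIs alone left out, Nkg7 was at −0.55, Prf1 at −0.43 and Gzma at 0.00, so the lower Gzma level was not seen there. Of 9 CD11b stage genes, 5 were lower (S1pr5, Cma1, Spn, Itga4 and Klf2; median −1.10) and none higher, and 2 of 9 were lower in the clean set, where S1pr5 was at −2.14 (−5.22 to −0.22, 2 against 55 UMIs) and Spn at −1.50. CD27 stage genes were within 2-fold for 10 of 10, with a median of −0.07, and Ltb was at 0.06, Tcf7 at 0.11 and Thy1 at 0.16.

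Of 8 activating receptors Klrc2 and Cd244a (−1.11) were lower and Fcgr3 (2.69), which macrophages also express, higher, and of 7 inhibitory receptors Klrc1 and Klri2 (−1.09) were lower and none higher. Klrc1 was at −2.08 (−2.91 to −1.34, 16 against 185 UMIs) and Klrc2 at −2.00 (−2.81 to −1.28, 17 against 186 UMIs), and both were found in a smaller share of members, 11.5% against 24.7% and 12.4% against 31.4%. At 500 UMIs a barcode the shares were 3.54% (0.973 to 8.82) against 14.4% (11.1 to 18.3) for Klrc1 and 5.31% (1.97 to 11.2) against 17.7% (14.1 to 21.9) for Klrc2, which did not overlap. Among clean barcodes Klrc1 was at −1.68 (−3.34 to −0.41) and Klrc2 at −0.95 (−2.11 to 0.03). Their partner Klrd1 was at −0.77. The Ly49 genes Klra7 (0.00), Klra3 (−0.16) and Klra9 (−0.51) and Klrg1 (0.22) were within 2-fold.

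Il12rb2 was at −2.28 (−3.63 to −1.18, 7 against 93 UMIs) and Tbx21 at −1.57 (−2.42 to −0.81). Among clean barcodes both intervals reached 0, at −1.27 and −0.74. Klf2 was at −1.12 and −0.39 in the clean set. Of transcription factors, 4 of 14 were lower and none higher, and in the clean set none of 9 was past 2-fold. Cytokine receptors were lower for 2 of 8 (Il12rb2 and Il18r1). The MHC class Ib gene H2-T23 was at −2.67 (−3.75 to −1.75, 10 against 174 UMIs), and CD8 T barcodes gave −2.10. Rgs1, an activation-linked regulator of chemokine receptor signaling, was higher at 1.93 (1.61 to 2.26) and 1.25 in the clean set (0.64 to 1.84), and Tgfb1 was at 2.42 and 1.83. Ccr2, a monocyte and NK trafficking receptor, was at 0.36 and at 1.31 in the clean set (0.66 to 1.92). Interferon-stimulated genes were higher for 3 of 6 (Ifit2, Bst2 and Xaf1), which macrophages also express, and the 1 measured in the clean set was lower.

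**Figure D5:**
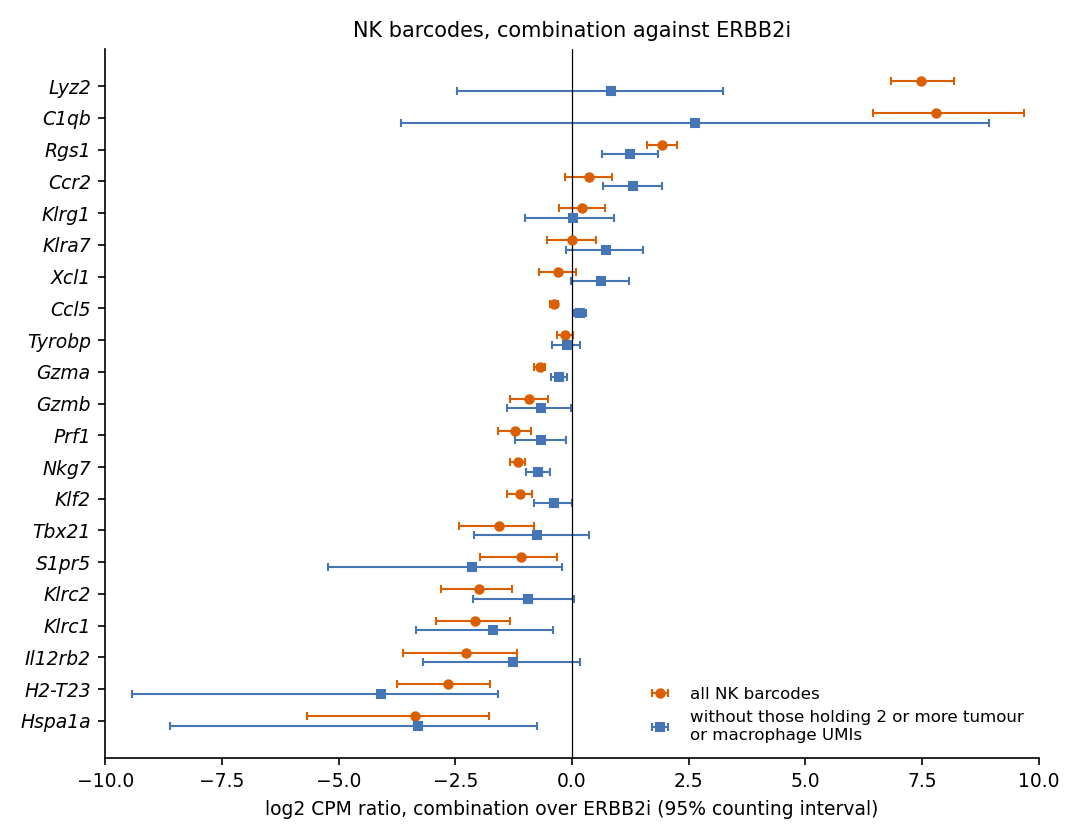
Log2 ratio of CPM, combination over ERBB2i, over all NK barcodes (circles) and over those left after removal of barcodes with 2 or more tumor or macrophage UMIs (squares), with exact 95% counting intervals. Lyz2 goes from 7.47 to 0.83; Gzma, Nkg7, Prf1 and Klrc1 stay below 0 and Rgs1 above it in both sets.

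The members also varied within a library. In ERBB2i, 121 of 389 carried UMIs of both Klra8 and Klra4, 88 of Klra8 alone, 70 of Klra4 alone and 110 of neither, and combination held 29, 32, 15 and 37. Of 6 inhibitory Ly49 genes (Klra1, Klra3, Klra5, Klra6, Klra7 and Klra9), ERBB2i members carried none in 161, 1 in 153, 2 in 69 and 3 or more in 6. NK cells are known to carry different mixtures of Ly49 receptors from cell to cell, and a missing UMI at this depth does not show a missing receptor.

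Members were also divided, after the values were seen and with no test, by genes that mark the ends of maturation. Xcl1 was found in 74 of 389 ERBB2i members, with a median of 1222 UMIs against 1100. They were higher than the rest in Ltb (log2 1.92, 1.32 to 2.53), Tcf7 (1.67), Gzmb (1.11), Thy1 (1.01) and Cd27 (0.97), and lower in Klrg1 (−1.16), Spn (−0.84) and Gzma. Klrg1 was found in 72 of 389. Those were higher in Cma1 (1.57, 1.07 to 2.06), Ly6c2 (1.02), S1pr5 (1.02), Ccl5 (0.99), Zeb2 (0.93), Gzmb (0.87) and Gzma (0.74, 0.63 to 0.84), and lower in Tcf7 (−2.35), Ltb (−1.32), Thy1 (−1.32) and Xcl1 (−1.04). Not all genes of the stage lists followed. Il7r, Kit and Lef1 of the CD27 stage were at −0.28, −0.38 and −0.27 in Xcl1 carriers, and Lef1 and Il7r at 0.87 and 0.11 in Klrg1 carriers, all with intervals that reached 0. Gzmb was higher in both groups of carriers.

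In combination the same division gave 27 Xcl1 carriers of 113, higher in Thy1 (3.13), Ltb (2.99), Tcf7 (2.33) and Cd27 (2.27), and lower in Klrg1 (−3.05, −8.38 to −0.50, 1 against 50 UMIs) and Ly6c2 (−2.81). The 24 Klrg1 carriers were higher in Ly6c2 (3.00), Prf1 (2.63, 1.94 to 3.36), Ccl5 (1.97), Gzma (1.58) and Cma1 (1.45), and lower in Xcl1 (−4.42, −9.74 to −1.89, 1 against 69 UMIs) and Tcf7 (−3.31, −8.66 to −0.73, 1 against 32 UMIs). In vehicle the 9 Klrg1 carriers held 293 UMIs of Gzma, 68 of Ly6c2, 23 of Gzmb and 17 of Cma1. The other 10 members held 119, 9, 6 and 3, at medians of 1841 and 1718.5 UMIs a barcode. These medians do not show the large vehicle barcodes of 14509 and 6657 UMIs given above. Gzma, Ly6c2, Gzmb and Cma1 were thus higher in Klrg1 carriers of all 3 libraries. For Xcl1 carriers the libraries differed. Gzma was at −0.45 in ERBB2i, 0.60 in combination and 0.66 (0.30 to 1.00) in vehicle, where 5 members carried Xcl1. Ly6c2 was at −0.54 in ERBB2i and at 2.97 (2.28 to 3.67) in vehicle, against the −2.81 of combination.

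The 4 members of combination in response held 10446 UMIs, with 36 UMIs of Nkg7, 25 of Tyrobp, 24 of Xcl1, 17 of Klra4 and 2 of Gzma. The only member in anti-PD-1 held 515 UMIs, with 2 of Klrb1c, 2 of Nkg7 and 0 of Gzma. At these numbers no level was compared.

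Ligands read by NK receptors were measured in tumor barcodes. These had at least 3 UMIs of the 13 tumor markers and 0 UMIs of the immune cell gene Ptprc, and were not NK barcodes. The NKG2D ligand Ulbp1 had levels of 62.8, 54.6, 71.5 and 54.4 CPM, in the order vehicle, anti-PD-1, ERBB2i, combination. The DNAM-1 ligand Nectin2 was at 17.8, 23.4, 22.6 and 27.8. The intervals of Ulbp1 in ERBB2i (69.3 to 73.8) and combination (52.7 to 56.1) did not overlap, nor did those of Nectin2 in vehicle (16.7 to 18.9) and combination (26.7 to 29.1). The MHC class I genes read by Ly49 receptors were highest in combination, with H2-K1 at 87.4, 101, 116 and 283 CPM, H2-D1 at 408, 467, 387 and 609, and B2m at 246, 243, 178 and 360. Lyz2 was found in 21.7% of vehicle, 6.29% of ERBB2i and 35.0% of combination barcodes without a rule UMI. That set was not limited to tumor barcodes. In tumor barcodes Tyrobp was found in 3.41%, 2.56% and 5.43%. Both macrophage genes were highest in combination and lower in ERBB2i than in vehicle. H2-D1 and B2m had that order too, and H2-K1 was higher in ERBB2i than in vehicle. The part of macrophage RNA in the class I levels was not tested. H2-T23, whose product shows peptides to the CD94 receptors, was lowest in combination, at 33.1, 31.1, 26.5 and 6.90. Clec2d, ligand of an inhibitory NK1.1 relative, was at 3.69, 5.84, 4.94 and 31.7. Raet1d, H60b and H60c had 0 UMIs in the tumor barcodes of all 4 libraries, and Raet1d and H60b were listed at 0 in all libraries over all cells.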

How the data were processed

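Single-cell suspensions of mouse lung tumors were captured on Singleron SCOPE-chips, and 5 libraries, 1 per group, were analysed. The authors deposited whole-number counts of UMIs per gene and barcode for 32589 genes. Per the labels the tools named are Cell Ranger and Scanpy and the build is mm10, while the methods name CeleScope. The labels carry no versions of these. The study removed doublets, and whether this preceded deposit is not stated, so Scrublet (scanpy 1.11.5) was run per library and a score above 0.25 was used as an alternative only. No per-sample column was left unused (0).

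The members and lists were chosen with earlier results of these data known. NK barcodes followed the rule in the text. T and B barcodes had at least 2 UMIs of Cd3e, Cd3d and Cd3g, or of Cd79a and Ms4a1. Tumor barcodes had at least 3 UMIs of 13 neuroendocrine markers and no UMI of Ptprc, and were not NK barcodes. UMIs were summed per class and library and scaled to counts per 1000000 (CPM). Ratios carry exact conditional intervals, levels exact Poisson and shares exact Clopper-Pearson intervals, all at 95% and for counting error only. Zeros were set at a floor of 3 counts. A gene was measured with at least 50 UMIs in both classes together. With 1 library a group no test was made, and libraries with under 20 NK barcodes entered no ratio. Named are the rule genes and Gzma, from each of 16 gene lists the 4 highest in ERBB2i and any member past 2-fold, and by size 10 genes each way for NK over CD8 T barcodes and 8 between libraries. Other genes, such as those of the within-library divisions and the weaker list members, were named after their values were seen. Alternatives were stricter filters, thinning to 500 UMIs, other gene minimums, median centering and removal of barcodes with tumor or macrophage UMIs. A few genes that the rule names are not reported here. Scripts were tested on simulated counts. Upstream sequences came from RefSeq tables of GRCm38.p6. Python 3.11.15, numpy 2.4.6, scipy 1.17.1, pandas 2.3.3 and matplotlib 3.10.9 were used.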

Additional observations from a re-analysis of the deposited data

Results flagged for a closer look

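For 7 genes the ratio of NK over CD8 T barcodes was on opposite sides of 0 in ERBB2i and combination, with neither counting interval reaching 0. In each case the difference was not tested, since each group was 1 library. The granule genes and the NKG2A gene were higher in NK barcodes of ERBB2i and lower in those of combination. On the log2 scale these were Klrc1 (1.48 and −0.91), Gzmb (1.82 and −0.69), Nkg7 (0.61 and −0.29) and Ctsw (0.43 and −0.46). The monocyte and lymphocyte surface gene Ly6c2 also changed sides (0.72 and −0.74). The chemokine Ccl5 (−0.43 and 0.23) and Rgs1 (−0.76 and 1.00) went the other way. After removal of barcodes with 2 or more tumor or macrophage UMIs, the values in ERBB2i and combination were 2.45 and 0.90 for Gzmb, 1.05 and 0.43 for Nkg7, 0.80 and 0.09 for Ctsw, and 1.00 and 0.16 for Ly6c2, the same side in both, although the intervals of Ctsw (−0.53 to 0.66) and Ly6c2 (−0.24 to 0.54) in combination reached 0. Ccl5 (−0.19 and 0.95) and Rgs1 (−0.50 and 0.91) stayed on opposite sides with no interval reaching 0. Klrc1 was at 1.58 and −0.33, the latter on 5 NK UMIs with an interval that reached 0 (−2.05 to 1.06). In combination 23.9% of NK and 17.4% of CD8 T barcodes held 2 or more macrophage UMIs, and the part of these in the other changes was not tested.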

How the results depend on the processing

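Of 590 alternative values, 346 stayed within the counting interval or within 1.5 times of the main count, 243 moved and 1 ratio of at least 2-fold changed sign. Smaller ratios that changed sign, such as those of Gzmb, Nkg7 and Ly6c2 given above, are counted as moved. The shares of NK among lymphocytes, 9.31% in vehicle, 12.2% in ERBB2i and 5.92% in combination, became 4.15%, 7.40% and 3.39% with no UMI of T cell receptor or co-receptor genes allowed, 5.61%, 7.59% and 2.50% without NK barcodes with tumor UMIs, and 17.7%, 17.5% and 9.32% thinned to 500 UMIs. With at least 3 rule UMIs they were 10.3% in ERBB2i and 4.72% in combination, and with the study's quality filters 4.44% in vehicle, where 2 NK barcodes were left, and 11.1% in ERBB2i. ERBB2i lay above combination in each of these settings for which both shares are given. Genes past 2-fold for NK over CD8 T barcodes in ERBB2i (513) became 1209 without NK barcodes with tumor UMIs, 144 thinned, 1046 at a minimum of 20 UMIs and 264 at 100. In combination (493) they became 840, 36, 1334 and 211, and 209 with the study's filters, 271 without macrophage UMIs and 109 without macrophage or tumor UMIs. Centering on the median gave 235 higher and 243 lower there. For combination over ERBB2i (598) they became 98, 42, 1729 and 196, and 337, 385 and 95, with 301 at 3 rule UMIs and 342 without T cell receptor UMIs. Bst2, at 2.19 in combination over ERBB2i, was at −0.28 with the study's filters. The setting without NK barcodes with tumor UMIs was not applied to CD8 T barcodes, which kept their tumor UMIs in those ratios. Fewer barcodes, UMIs or genes entered most of these settings, and other causes were not tested. No paired analysis was possible because each group has 1 library. Comparisons of vehicle, anti-PD-1 or combination in response with ERBB2i, and of NK with CD8 T barcodes in those libraries, were not run, having fewer than 20 NK barcodes. At a median of 1111 to 1123 UMIs a barcode, a missing UMI does not show a missing transcript.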

Other observations

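Levels of proliferation genes were as follows. Mki67, a marker of cycling cells, was at 340 CPM in vehicle, 743 in ERBB2i and 599 in combination, and Stmn1 at 1324, 3122 and 1909. Tumor cells express the same genes, and 41.1% of NK barcodes in ERBB2i held 2 or more tumor UMIs. Among barcodes without tumor or macrophage UMIs, the ratio of NK over CD8 T barcodes for Mki67 in ERBB2i was −0.30 (−0.80 to 0.18), against 0.46 (0.30 to 0.63) over all.

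Thy1, found on immature NK cells and ILC, had a UMI in 39 of 389 ERBB2i members. These were higher in Il7r (2.14), Ltb (1.96), Xcl1 (1.42) and Emb (1.28), and lower in Gzma (−1.43, −1.65 to −1.22), Prf1 (−1.21), Cma1 (−2.08) and S1pr5 (−2.80). In combination the 15 carriers of 113 were higher in Ltb (2.54) and Xcl1 (2.36), and Gzma was at 0.43 and Prf1 at 1.11 (0.28 to 1.88), both on the other side of 0 from ERBB2i. Il7r there was at −1.69 (−7.06 to 0.94, 1 against 22 UMIs). The division was made after the values were seen. Of genes of ILC2 and ILC3, Il17a had 2 UMIs in all ERBB2i members, and Il1rl1, Areg, Il13, Il5 and Il23r had 0 in the members of vehicle, ERBB2i and combination.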
